A study of Rattus norvegicus with 12 samples.

Results

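The liver makes most of the complement and blood clotting proteins of plasma, and 40 such genes were followed here in livers of germ-free and antibiotic-treated rats. The genes were taken by name from a list of complement components, clotting factors, fibrinogen chains, fibrinolytic proteins and their inhibitors. Of the 40, 35 had at least 1 probe set of their own (45 probe sets in all), 1 of them (kininogen, Kng1) under the current symbol Kng2l1. All 35 were tested, among 9300 genes in all. C2 and Cfb were read only by 4 probe sets annotated to both genes. No probe set was annotated to F7, F11 or F13b here, so these were not analysed.

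Complement is a chain of plasma proteases and pore-forming proteins. The classical pathway (C1r, C1s) and the lectin pathway (mannose-binding lectins and their Masp proteases) cleave C3, the alternative pathway amplifies that step, and the terminal components C5 to C9 assemble into a pore in target membranes. Clotting runs through a similar chain of serine proteases, several of which need vitamin K, a vitamin that gut bacteria also make, to be modified in the hepatocyte, and it ends when thrombin (F2) turns fibrinogen into fibrin. Serpins such as antithrombin and C1 inhibitor hold both chains in check, plasmin dissolves fibrin, and hepatocytes raise several of these genes when interleukin-6 signals inflammation.

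Liver RNA was measured on 1-colour Affymetrix arrays, 1 array per animal and 12 in all. Each of the 4 groups held 3 animals. Of the Sprague Dawley strain, animals 1, 3 and 4 were germ-free and 6, 7 and 8 conventional. Of the Han Wistar strain, animals 1, 2 and 3 were left untreated and 13, 14 and 15 were dosed with antibiotics. The antibiotics were streptomycin, stated at 4 mg/ml, and penicillin, at 2 mg/ml, taken in drinking water at will for 8 days. Whether these concentrations were those of the stock or of the water is not settled by the labels. No agent or allele is labelled as common to all groups, and for no group do the labels give age, sex, diet or the time of tissue collection, so these cannot be told apart from the treatment. Each treated group was compared with the control of its own strain, and the strains were not compared with each other.

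Signals are linear intensities as deposited, and the trimmed mean of every array lay at about 100. Fold changes are differences of log2(signal + 16) with their standard error (SE), and understate the change of dim genes. Tests are limma's, with p-values adjusted by Benjamini-Hochberg over all 9300 genes, and "rose" or "fell" is kept for an adjusted p under 0.05. The p-values set a difference against the spread between the animals of a group, whose number limits the precision. Signals in the text follow the order of the animal numbers above. Across genes, correlations between arrays of the same group ran from 0.977 to 0.987, and no arrays were identical. The hepatocyte markers were bright in every liver, with a summed signal of 30478 to 57630 over all animals. Of the markers of other cell types, 7 of 8 endothelial markers rose in germ-free livers (median log2 fold change 0.93; Kdr in 17 of 25 alternatives), where their summed signal was 1725 to 2419 against 867.0 to 1112 in conventional livers. The macrophage list had 1 of 6 that fell (Clec4f, -0.64, a call that needed germ-free animals 1 and 4 and conventional animals 7 and 8), and of 7 hepatocyte, 8 stellate and 3 bile duct markers 0 were called. No marker with a probe set was at 0, and the 5 lymphocyte markers lay below the signal filter. In whole liver, fewer cells of a type and less RNA per cell cannot be told apart, and the part of these markers in the results below was not tested.

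In germ-free livers 6 of the 35 members rose, 0 fell and 29 did not pass. The members that rose were C6, C1s, C8g, Serpinf2, Serping1 and Kng2l1, which fall into 5 of the 8 role groups taken in turn here. This is 17.1% of the members, where 6.44% of all genes rose and 6.74% fell (13.2% in either direction). C6 stood far above the others in size at 3.71-fold by the ratio of mean signals, while the other 5 lay between log2 fold changes of 0.42 and 0.57. Of the 35 members 28 had a value above 0, with a median of 0.17 against 0.03 over all genes, of which 53.7% lay above 0. Every germ-free animal exceeded every conventional one for 12 members (34.3%), against 15.4% of all genes, and the reverse held for 0 members, against 14.5%. An unadjusted p under 0.05 was reached by 13 of the 35 members, where 28.1% of all genes did so. For the 29 members that did not pass, the 95% intervals reached from -0.45 to 0.74, and changes of such sizes may go undetected with 3 animals a group.

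**Figure D1:**
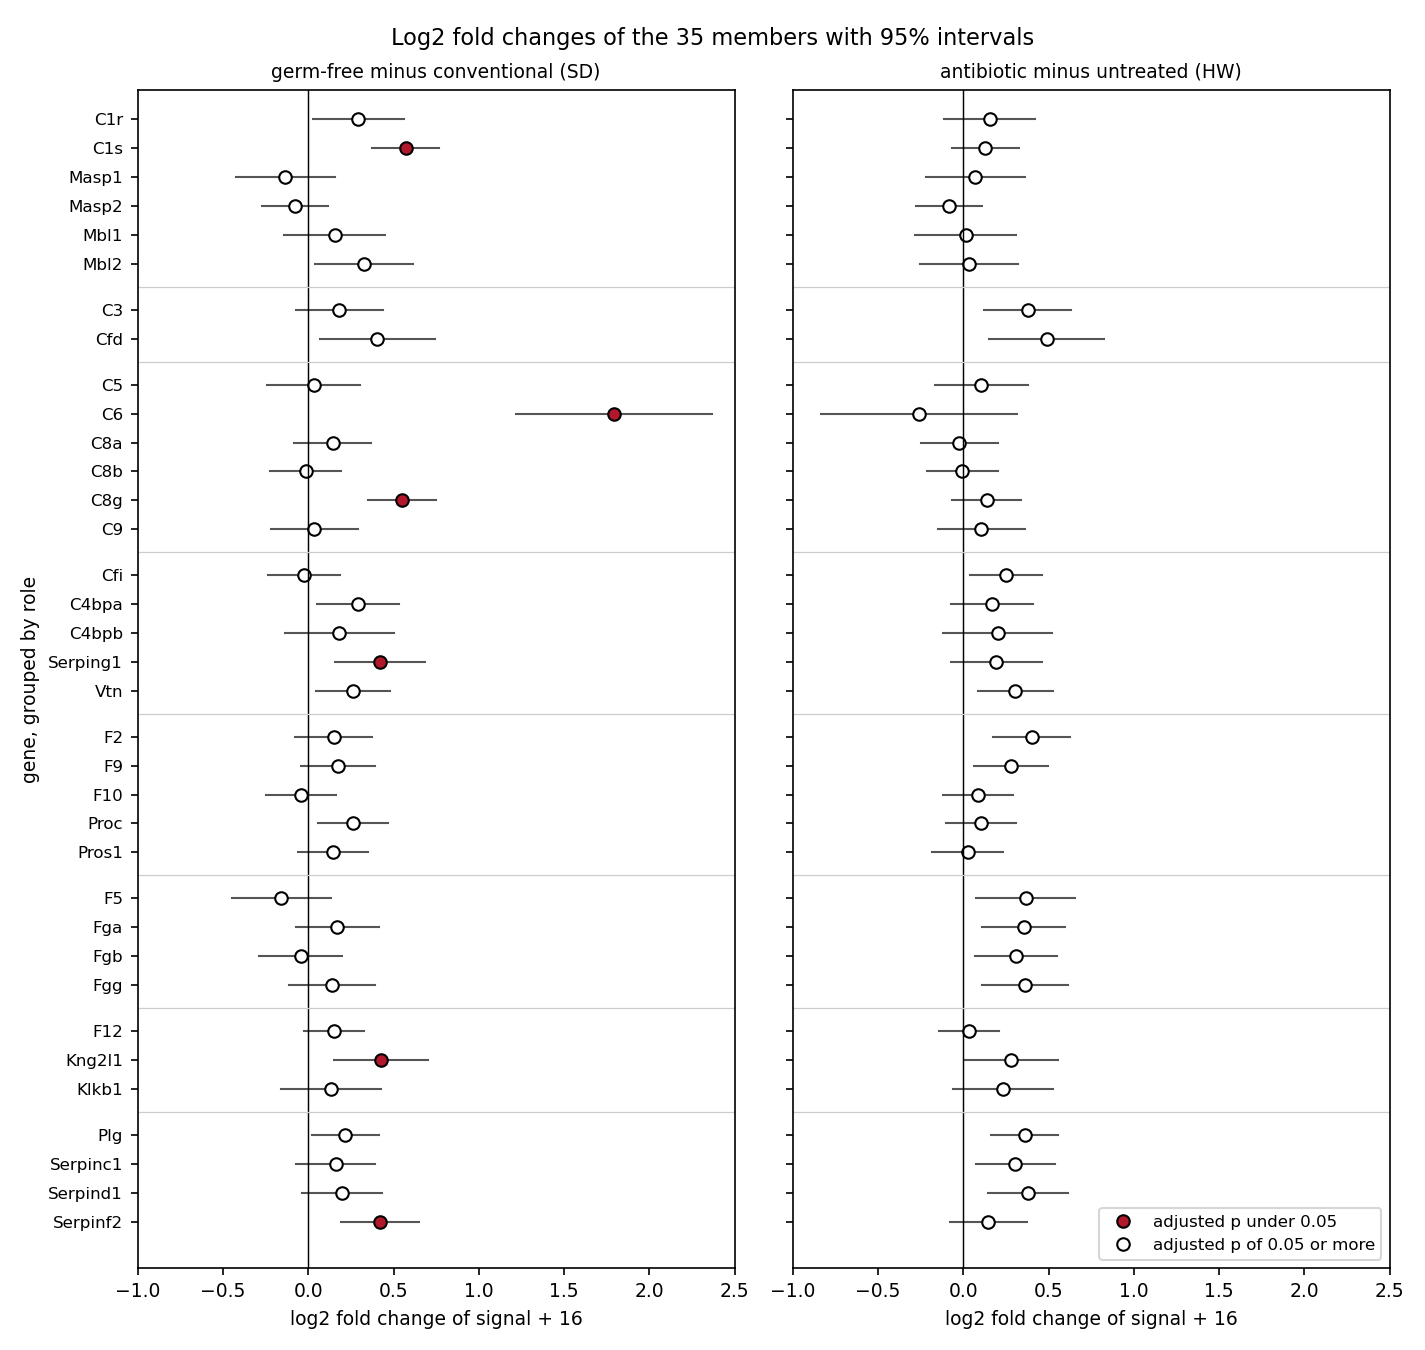
Log2 fold change of signal + 16 (horizontal axis) for the 35 members (vertical axis, grouped by role from the start of complement at the top to fibrinolysis and serpins at the bottom), germ-free minus conventional at left and antibiotic minus untreated at right. Points are estimates from 3 against 3 animals, bars are 95% intervals and filled points passed at an adjusted p under 0.05: 6 at left, with C6 at 1.79, and 0 at right.

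Among the terminal components, C6 and C8g rose, and C5, C8a, C8b and C9 did not pass. C6 binds C5b and starts the assembly of the membrane pore. Its signal was 1166, 899.7 and 1725 in the germ-free animals and 347, 318 and 358 in the conventional ones. The lowest germ-free animal was thus well above the highest conventional one, and the germ-free animals also differed widely among themselves. The log2 fold change was 1.79 ± 0.27 (95% interval 1.22 to 2.37, adjusted p = 0.000706 by limma). The means were 1264 ± 421 and 341 ± 20.7 (SD, n = 3).

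RefSeq's promoter table (build GRCr8) has entries for 3 of the 6 members that rose, and their 250 bases before the annotated transcript start are shown because these are the genes that moved in the same direction. The 5 motifs searched, on both strands, are ones that liver transcription factors are known to bind. Capitals mark a match of a C/EBP motif (TTGCNNAA) or a STAT motif (TTCNNNGAA), and the others were HNF1 (GTTAAT), HNF4 (CAAAGTCCA) and FOXA (TGTTTAC).
C6, chr2:55573383-55573632, plus strand: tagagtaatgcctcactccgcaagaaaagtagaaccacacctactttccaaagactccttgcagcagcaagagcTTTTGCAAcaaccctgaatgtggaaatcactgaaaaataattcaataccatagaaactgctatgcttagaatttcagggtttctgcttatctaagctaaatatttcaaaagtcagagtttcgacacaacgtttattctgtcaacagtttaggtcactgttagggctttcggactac
Kng2l1, chr11:91483169-91483418, plus strand: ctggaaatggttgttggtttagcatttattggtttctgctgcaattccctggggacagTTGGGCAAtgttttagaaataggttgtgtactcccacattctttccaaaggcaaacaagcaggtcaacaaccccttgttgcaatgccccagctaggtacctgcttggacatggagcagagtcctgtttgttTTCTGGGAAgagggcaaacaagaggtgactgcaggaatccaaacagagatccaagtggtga
Serpinf2, chr10:60778783-60779032, minus strand: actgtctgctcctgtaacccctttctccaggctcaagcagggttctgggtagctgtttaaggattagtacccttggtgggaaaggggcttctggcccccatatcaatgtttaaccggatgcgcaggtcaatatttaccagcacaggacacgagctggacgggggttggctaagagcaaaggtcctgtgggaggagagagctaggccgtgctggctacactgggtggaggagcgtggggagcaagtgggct
The C6 promoter held 1 C/EBP match, which begins 176 bases before the start. The Kng2l1 promoter held a C/EBP match 192 bases and a STAT match 61 bases before the start, and a further annotated start of that gene had the same STAT letters 160 bases before it. None of the 5 motifs was found in these letters of the Serpinf2 window. Of the 29 members with an entry, 12 (41.4%) held the C/EBP letters, where 9.99% of 27457 genes in the table did. The HNF1 letters were in 9 members (31.0%, against 7.13% of all genes), the STAT letters in 8 (27.6%, against 8.20%), the FOXA letters in 4 (13.8%, against 3.54%) and the HNF4 letters in 0 (against 0.393%). A match is a string of letters and not a measured binding site, the table also holds genes that the liver does not use, and overlaps between motifs were not removed.

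C8g encodes the gamma chain of C8, a lipocalin that is joined to the chain encoded by C8a. Its signal was 4468, 4449 and 5186 in germ-free and 3152, 3111 and 3341 in conventional animals, with no overlap and little spread in either group (0.55 ± 0.09, adjusted p = 0.00186 by limma). The genes of the other C8 chains did not follow it past the threshold. C8a, the alpha chain, was at 2664, 3115 and 3107 against 2321, 2899 and 2840.2 and its groups overlapped (0.14 ± 0.11, adjusted p = 0.406). C8b, the beta chain, was at 3556, 3903 and 4126 against 3752, 3791 and 4157, also overlapping (-0.02 ± 0.10, adjusted p = 0.939). Whether C8g differed from C8a or C8b in its change was not tested.

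C5, whose cleavage begins the terminal step, had signals of 1693, 1318 and 1415 in germ-free and 1182, 1601 and 1564 in conventional livers. C9, which polymerises into the ring of the pore, had 5547, 5096 and 5915 against 4954, 5189.5 and 6054. Both pairs of groups overlapped, with log2 fold changes of 0.03 ± 0.13 and 0.03 ± 0.12 (adjusted p = 0.903 and 0.884 by limma).

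**Figure D2:**
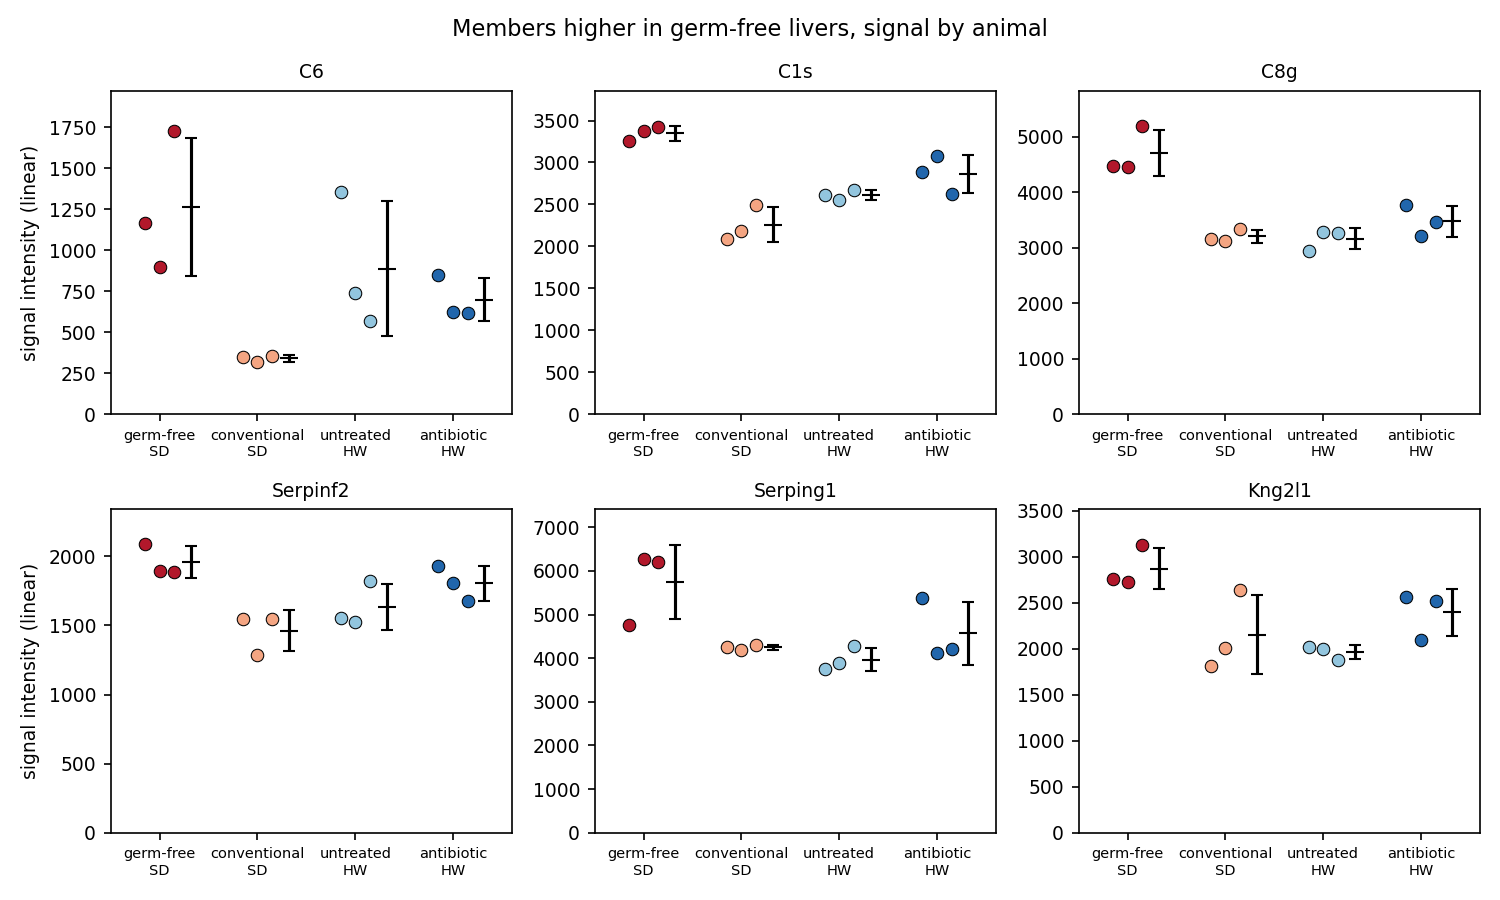
Signal intensity (linear, vertical axis) of the 6 members that rose in germ-free livers, in each of the 12 animals by group (horizontal axis; SD is Sprague Dawley, HW Han Wistar). Points are animals and the line with bars is the mean ± 1 standard deviation of 3; in every panel all germ-free points lie above all conventional ones, and C6 also spreads widely among the untreated Han Wistar animals, from 570.6 to 1354.

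At the start of the classical and lectin pathways, C1s rose and the other 5 members tested did not pass. C1s, the protease of the C1 complex that cleaves C4 and C2, had signals of 3251, 3373 and 3423 in germ-free and 2093, 2183 and 2491 in conventional animals. The germ-free animals lay close together and above all conventional ones (0.57 ± 0.09, adjusted p = 0.0011 by limma). C1r, which activates C1s within the complex, was at 3370.0, 2829 and 3217 against 2167, 2626 and 2911, where germ-free animal 3 lay below conventional animal 8 (0.29 ± 0.12, adjusted p = 0.135).

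The mannose-binding lectins recognise microbial sugars. Mbl1 had signals of 1185, 1252 and 1550.1 in germ-free and 1081, 1077 and 1426 in conventional animals, with overlap (0.15 ± 0.14, adjusted p = 0.499 by limma). Mbl2 had 2878, 3811 and 3547 against 2598, 2616 and 2883, and germ-free animal 1 fell just short of the highest conventional one (0.33 ± 0.13, adjusted p = 0.122). Without germ-free animal 1, Mbl2 passed, as it did with array weights. Masp2, the lectin pathway protease that cleaves C4 and C2, was at 1169.9, 1214 and 1330.1 against 1322, 1239 and 1358 with overlapping groups (-0.08 ± 0.09, adjusted p = 0.62). Its dimmer probe sets had values of 0.16 and 0.22, neither called.

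The probe sets of Masp1, the other lectin pathway protease, differed in their call and in sign. The brightest, 1390585_at, stood for the gene and read 509.7, 428 and 386 in germ-free and 390.2, 511 and 563 in conventional animals, with overlap and a log2 fold change of -0.13 ± 0.14 (adjusted p = 0.558 by limma). Probe set 1371116_at read 135, 269 and 267 against 117, 108 and 124, so that every germ-free animal was above every conventional one. In the fit of every probe set, where 12.2% of 15523 were called, it rose by 0.80 ± 0.24 (adjusted p = 0.0423). That call was lost without germ-free animal 3 (0.167) or 4 (0.147), without any 1 conventional animal (0.0713 to 0.112), and without untreated animal 1 (0.0541) or antibiotic animal 15 (0.0523). The third, 1389543_at, was dim and had a value of 0.19 (adjusted p = 0.374). Masp1 is known to give several transcripts by splicing, and which of them each probe set reads was not analysed here. The direction for the gene is therefore not settled.

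**Figure D3:**
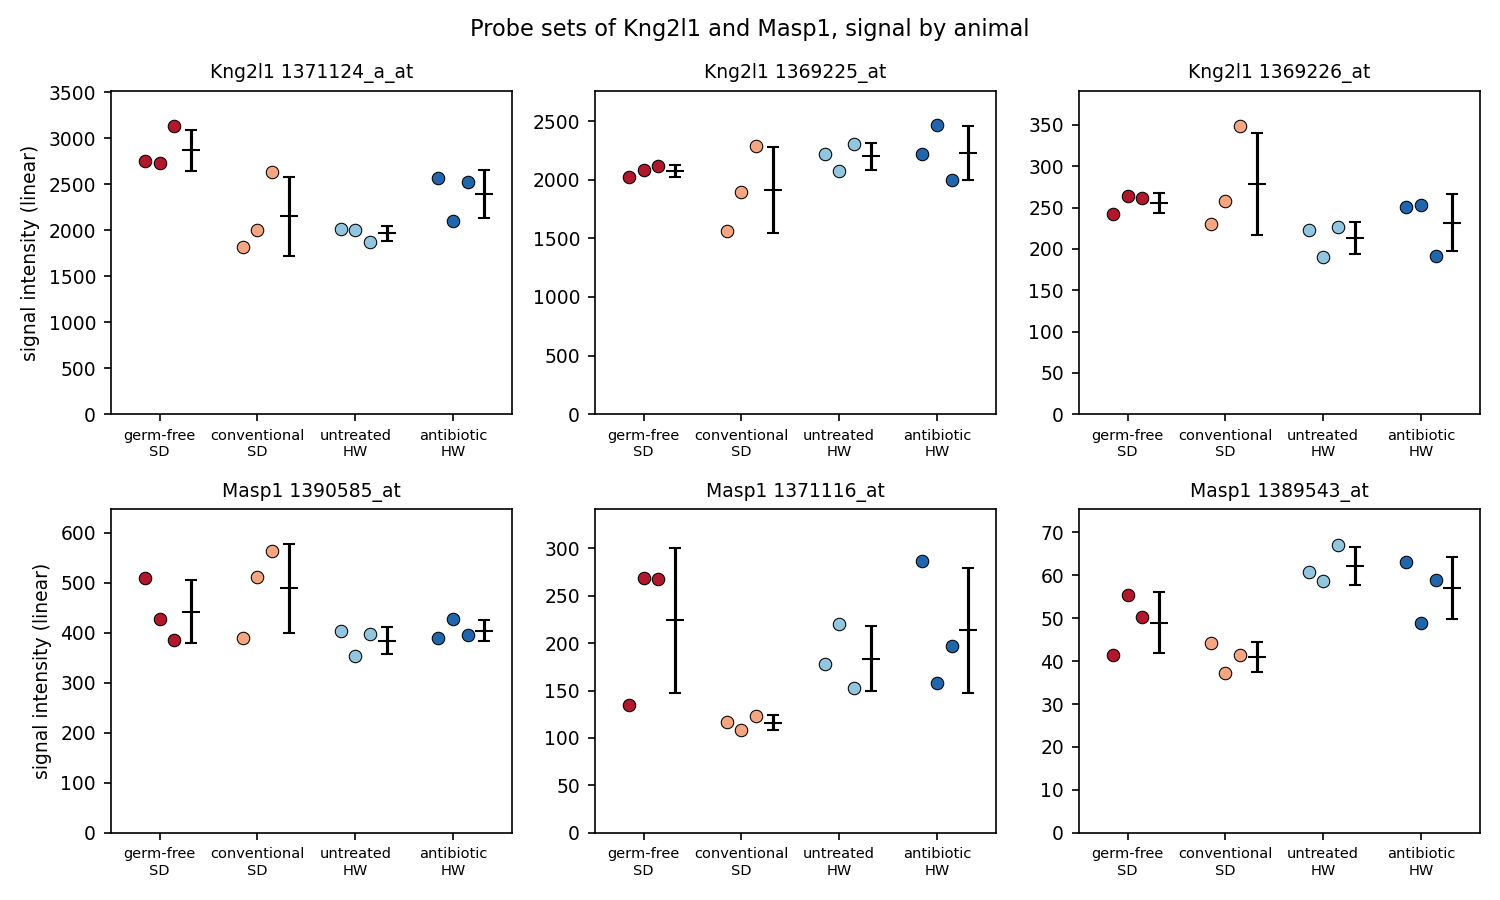
Signal intensity (linear, vertical axis) of the 3 own probe sets of Kng2l1 (top) and of Masp1 (bottom) in each animal by group (horizontal axis; SD is Sprague Dawley, HW Han Wistar). Points are animals and the line with bars is the mean ± 1 standard deviation of 3; only 1371124_a_at for Kng2l1 and 1371116_at for Masp1 separate germ-free from conventional animals.

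C3, the central component, and Cfd, the protease that activates factor B in the alternative pathway, did not pass, though their groups did not overlap. C3 was at 9232, 10476 and 10754 in germ-free and 8825, 8758 and 9226 in conventional livers, a narrow gap (0.18 ± 0.12, adjusted p = 0.343 by limma). After quantile normalization its value was 0.01. Cfd, the dimmest member with a mean signal of 86.4 over all arrays, was at 108, 128 and 139 against 80.5, 102 and 89.6 (0.40 ± 0.16, adjusted p = 0.106). Fat tissue is the known main source of Cfd, which is also called adipsin. The 4 probe sets shared by C2 and Cfb, neighbouring genes for similar proteases, had log2 fold changes between -0.06 and 0.18 and none was called. The brightest of them, 1389470_at, read 4042, 4090.3 and 4186 against 4029, 3760.3 and 3827, with a value of 0.08.

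Of the 5 complement inhibitors, Serping1 rose and the others did not pass. Serping1 is C1 inhibitor, which blocks C1r, C1s, the Masp proteases and plasma kallikrein. Its signal was 4757, 6266 and 6211 in germ-free and 4259, 4183 and 4308 in conventional livers. All germ-free animals were higher, animal 1 by the least (0.42 ± 0.12, adjusted p = 0.0375 by limma). This call was kept in 15 of 25 alternatives. The adjusted p was above the threshold without germ-free animal 3 (0.154) or 4 (0.123), without conventional animal 6 (0.0762), 7 (0.0931) or 8 (0.0733), and without untreated animal 2 (0.0511), which enters the shared estimate of the spread, and under 4 other settings.

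Vitronectin, Vtn, which blocks the assembly of the pore, was at 6477, 7000.2 and 6999.7 in germ-free and 5518, 5626 and 5903 in conventional livers. Its groups did not overlap, but it did not pass (0.26 ± 0.10, adjusted p = 0.103 by limma, and a value of 0.09 after quantile normalization). C4bpa, the alpha chain of the C4b-binding protein, was at 4754, 5446 and 5948 against 4022, 4272 and 4885 with a slight overlap (0.29 ± 0.11, adjusted p = 0.101), and passed without germ-free animal 1 and with array weights. C4bpb, its beta chain, which carries protein S, was at 2192, 2192 and 2645 against 1780.1, 1856 and 2628. Conventional animal 8 was as high as the germ-free ones there (0.18 ± 0.15, adjusted p = 0.457). Cfi, the protease that inactivates C3b and C4b, was at 5559.9, 6137 and 6410.1 against 5706, 5921 and 6836, with conventional animal 8 the highest of all (-0.03 ± 0.10, adjusted p = 0.894).

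In the contact system, which starts clotting on charged surfaces and releases bradykinin, Kng2l1 rose by 1 of its probe sets. Kininogen is the precursor of bradykinin. Its brightest own probe set, 1371124_a_at, was at 2757, 2728 and 3129 in germ-free and 1816, 2008 and 2634 in conventional animals. The groups did not overlap, though conventional animal 8 came close to the germ-free range (0.43 ± 0.13, adjusted p = 0.0415 by limma). The other own probe sets, 1369225_at and 1369226_at, had values of 0.13 and -0.10 (adjusted p = 0.531 and 0.711). A probe set shared with other kininogen genes, 1387050_s_at, had 0.11 (adjusted p = 0.461). As the mean of its own probe sets the gene had a value of 0.15 (adjusted p = 0.437). The call was kept in 10 of 25 alternatives and missed the threshold without any germ-free animal (0.0582 for 1, 0.0816 for 3 and 0.134 for 4), without conventional animal 6 (0.138) or 7 (0.12), and also without untreated animal 1 (0.0551), 2 (0.0566) or 3 (0.0501) or antibiotic animal 15 (0.0521), and under 6 other settings. Since the kininogen genes of the rat resemble each other closely, a signal here can come from more than 1 of them.

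F12, the protease that begins the contact pathway, was at 3590.3, 3612 and 3784 in germ-free and 3122, 3326 and 3443 in conventional animals. All germ-free animals were higher, by little, and it did not pass (0.15 ± 0.08, adjusted p = 0.251 by limma). Klkb1, plasma prekallikrein, was at 2254, 2228 and 2372 against 1870.2, 2146 and 2248, with overlap (0.13 ± 0.14, adjusted p = 0.568).

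None of the 5 tested vitamin K-dependent members was called in germ-free livers. Protein C, Proc, an anticoagulant protease, came nearest, at 3277, 3199.7 and 3297 in germ-free and 2735, 2712 and 2689 in conventional animals. Both groups were tight and did not overlap (0.26 ± 0.09, adjusted p = 0.0831 by limma, and 0.0267 after quantile normalization). The others lay between F10, which forms thrombin, at -0.04 and F9, the factor lacking in haemophilia B, at 0.17. Prothrombin, F2, had 0.15, and Pros1, the partner of protein C, had 0.15. Of 6 tested genes of the vitamin K cycle 0 were called. Ggcx, the carboxylase that modifies these factors, had a value of 0.32 (adjusted p = 0.153), and Vkorc1, the reductase that warfarin blocks, 0.10 (adjusted p = 0.658). Nqo1, a quinone reductase, had -0.84 (adjusted p = 0.28).

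The fibrinogen chains and F5, the cofactor of thrombin formation, did not pass either. Fga, Fgb and Fgg, for the alpha, beta and gamma chains, had log2 fold changes of 0.17, -0.05 and 0.14, and F5 of -0.16, the lowest of the 35 members. All 4 pairs of groups overlapped. A dimmer probe set of Fga, 1371258_at, had a value of 0.02, also with overlap. With quantile normalization Fgb was called lower (-0.23, adjusted p = 0.0112 by limma), the only call of a lower member under any setting tried. Of its 3 probe sets 2 lay below the signal filter.

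Among fibrinolysis and the plasma serpins, Serpinf2 rose. Serpinf2 is alpha-2-antiplasmin, the main inhibitor of plasmin. Its signal was 2089, 1897 and 1884 in germ-free and 1549, 1289 and 1546 in conventional livers, without overlap (0.42 ± 0.11, adjusted p = 0.018 by limma). It missed the threshold when germ-free animal 1 (adjusted p = 0.052) or conventional animal 7 (0.0771) was left out and with the actin ratio as a covariate (0.127). Plg, the precursor of plasmin, was at 6930.1, 7441 and 7697 against 6226, 6211 and 6523, also without overlap, and did not pass (0.22 ± 0.09, adjusted p = 0.135, and a value of -0.0002 after quantile normalization).

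Serpinc1, antithrombin, was at 6574, 7418 and 7738 in germ-free and 6137, 6373 and 6913 in conventional animals (0.16 ± 0.11, adjusted p = 0.36 by limma). Serpind1, heparin cofactor II, was at 4026, 4952 and 4778 against 3884, 3710.4 and 4388 (0.20 ± 0.11, adjusted p = 0.265). The groups of both overlapped, with conventional animal 8 inside the germ-free range.

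Of the 6 members that rose in germ-free livers, C1s, C6 and C8g were called under all 25 alternatives in processing, with log2 fold changes of 0.52 to 0.64, 1.54 to 2.01 and 0.47 to 0.59. The count of members that rose fell to 3 without conventional animal 7 and with the beta-actin ratio as a covariate. That ratio sets the signal at the 3' end of the actin transcript over that at its 5' end and rises as RNA degrades. Germ-free arrays had a mean of 4.39 ± 0.762 and conventional arrays 5.37 ± 0.839 (SD, n = 3), which an exact permutation test did not separate (two-sided p = 0.2; with 3 against 3 it cannot go below 0.1).

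With antibiotics 0 of the 35 members were called, where 2 of all 9300 genes were (0.0215%), both of them lower. The lowest adjusted p among the members was 0.178, and 14 of the 35 (40.0%) had an unadjusted p under 0.05, all with values above 0, against 10.4% of all genes. In all, 31 of 35 members had a value above 0 (median 0.17, against 0.00154 over all genes, of which 50.3% were above 0). The groups did not overlap for 8 members (22.9%), all higher with antibiotics, against 9.19% of all genes higher and 9.12% lower. These values depended on the scaling of the arrays: after quantile normalization, which gives all arrays the same distribution of signals, 18 of the 35 changed sign, 7 of them among the 14, and 13 of 35 lay above 0.

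The 3 values nearest the threshold came from clotting and fibrinolysis genes, and that of the complement gene C3 came next (adjusted p = 0.274 by limma). Plg was at 6561, 5444 and 5768 in antibiotic-treated and 4439, 4373 and 5006 in untreated animals (0.36 ± 0.09, adjusted p = 0.178 by limma). F2, prothrombin, was at 7305, 5736 and 6563 against 4683, 4705 and 5403 (0.40 ± 0.10, adjusted p = 0.187). Serpind1 was at 4181, 3520.4 and 3993 against 2792, 2881 and 3297 (0.38 ± 0.11, adjusted p = 0.239). In all 3 genes antibiotic animal 13 was the highest and the groups did not overlap, but none passed. After quantile normalization the values were smaller, at 0.04 for Plg, 0.04 for F2 and 0.19 for Serpind1.

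F9 was at 4308, 3426 and 3731 with antibiotics and 2972, 3100.5 and 3321 without (0.28, adjusted p = 0.351 by limma). Fgb was at 8102, 6508 and 6884 against 5682, 5230.3 and 6436 (0.31, adjusted p = 0.355). Fga and Fgg had similar values of 0.35 and 0.36 with overlapping groups. The dimmer probe set of Fga, 1371258_at, had only 0.07 (adjusted p = 0.953 by limma). Cfi was at 6048, 5230.2 and 5589 against 4570.5, 4507 and 5095 (0.25, adjusted p = 0.398). For F9, Fgb and Cfi every antibiotic animal was above every untreated one, with animal 13 the highest and animal 14 the lowest of the treated. After quantile normalization, however, F9 had a value of 0.06, and Fga, Fgb, Fgg and Cfi lay below 0, at -0.08, -0.12, -0.03 and -0.11.

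Kng2l1 (1371124_a_at) was at 2563, 2097 and 2523 with antibiotics and 2018, 2001 and 1876 without (0.28, adjusted p = 0.473 by limma). Its other own probe sets, 1369225_at and 1369226_at, had antibiotic values of 0.01 and 0.11 with overlapping groups, and the mean of its probe sets 0.13. The probe set shared with other kininogen genes, 1387050_s_at, had 0.39 ± 0.09 without overlap and was not called (adjusted p = 0.175 by limma). Cfd was at 70.1, 66.0 and 100.2 against 62.5, 45.5 and 45.4 (0.49 ± 0.16, adjusted p = 0.279), the largest value of the 35, from a dim probe set and with animal 15 the highest. Of the 35 members tested, Cfd, Plg and, by its brightest own probe set only, Kng2l1 had treated animals above all controls in both comparisons. So did 1389470_at, the brightest probe set shared by C2 and Cfb, with an antibiotic value of 0.27 (adjusted p = 0.271 by limma). The share of all genes that lay so in both comparisons was not counted. Probe sets 1383391_a_at, 1383392_at and 1393219_at, shared by the same genes, had antibiotic values of 0.11, 0.12 and 0.26, none called. There too every antibiotic animal was above every untreated one, narrowly for 1383391_a_at and 1383392_at. Of all genes 9.19% were higher without overlap with antibiotics. The shared probe sets were not part of the quantile-normalized fit. C3 had a value of 0.38 and Vtn of 0.31, with overlap, and both lay at -0.02 after quantile normalization.

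The 6 members that rose in germ-free livers had antibiotic values of -0.26 (C6), 0.13 (C1s), 0.14 (C8g), 0.15 (Serpinf2), 0.19 (Serping1) and 0.28 (Kng2l1). None of these was called. After quantile normalization 3 of the 6 changed sign, C1s to -0.03, C8g to -0.09 and Serping1 to -0.09, while C6 was at -0.27, Serpinf2 at 0.09 and Kng2l1 at 0.18. Without untreated animal 1 the value of C6 was 0.08. C8a (-0.02), C8b (-0.01) and Masp2 (-0.08) were with C6 the 4 members below 0 with signals as deposited. The intervals of all 35 members reached from -0.84 to 0.83.

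The members are among the brightest genes of the liver, and their antibiotic values moved with brightness. Of the 35, 32 had a mean signal of at least 1000. The 106 other genes above a signal of 4000 had a median antibiotic value of 0.32, with 97.2% above 0, and the 12 members in that range had 0.31. Between 2000 and 4000 the 239 other genes had 0.16 and the 15 members 0.14. The 99th percentile of signals was 2854 ± 140 with antibiotics and 2549 ± 110 without (SD, n = 3), with a two-sided p of 0.1 in an exact permutation test, the smallest possible. With quantile normalization the median antibiotic value of the members was -0.02. As that scaling gives all arrays the same distribution of signals, it would also remove a true change shared by the brightest genes. The hepatocyte markers, bright genes too, had antibiotic values of 0.35 to 0.47 in 7 of 7, with 0 called. Without antibiotic animal 13 the members' median was 0.10 and 7 had an unadjusted p under 0.05, and without untreated animal 1 that number was 9.

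In germ-free livers the same check gave other values. The 15 members between 2000 and 4000 had a median of 0.18, where the 239 other genes had 0.01. After quantile normalization the members of that range had 0.13, against -0.0022 for the other genes. Above 4000 the 12 members had 0.16 and the 106 other genes 0.17, and after quantile normalization -0.0096 and 0.01. The 99th percentile was 2972 ± 141 in germ-free and 3006 ± 134 in conventional livers (exact permutation test, two-sided p = 0.7). The hepatocyte markers had germ-free values of 0.06 to 0.29 in 7 of 7, with a median of 0.17, close to that of the members as deposited, and 0 called. Over all 35 members the germ-free median was 0.12 after quantile normalization, with 23 above 0.

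**Figure D4:**
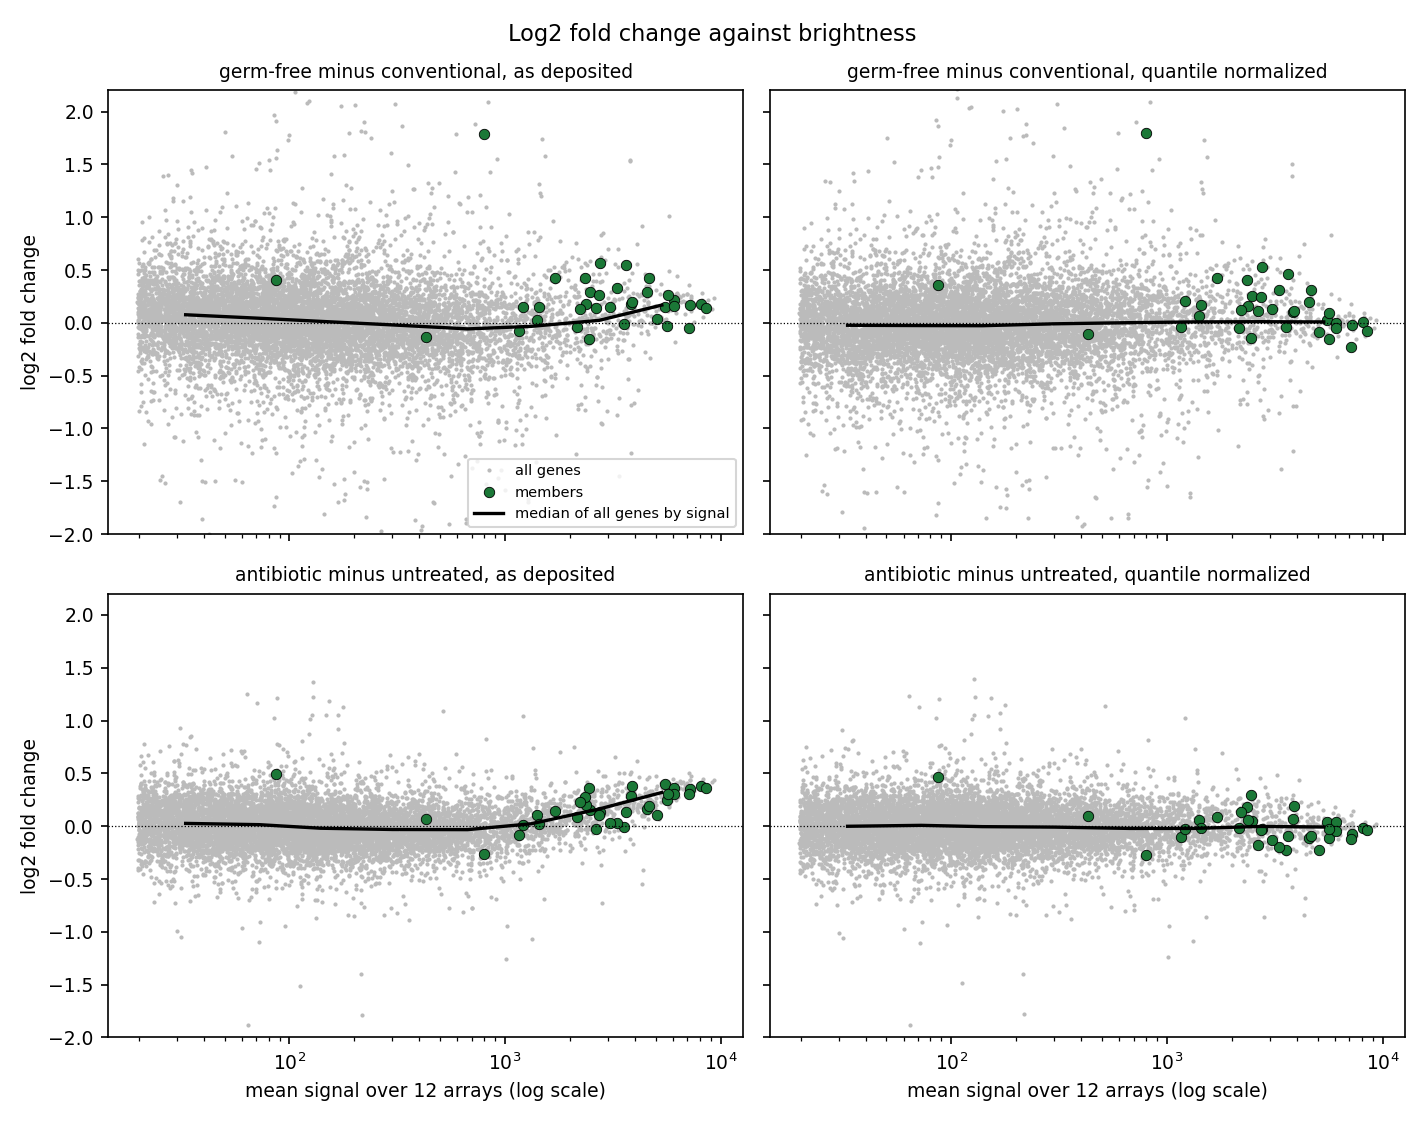
Log2 fold change (vertical axis) against mean signal over the 12 arrays (horizontal log axis) for all genes (grey), the 35 members (green) and the median of all genes by signal range (line), with signals as deposited at left and after quantile normalization at right. Points beyond -2 or 2.2 are outside the axis. The line rises at the bright end in the antibiotic panel as deposited, where 31 of 35 members lie above 0. It does not after quantile normalization, where 13 do. That scaling gives all arrays the same distribution of signals, so a bright end near 0 follows largely from the method.

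The germ-free and antibiotic values were compared in 1 test of their difference. Of the 35 members 1 was called, C6, where 5.94% of all genes were (2.69% with the germ-free value higher and 3.25% with it lower). Its signal was 850.0, 626 and 617 with antibiotics and 1354, 740.0 and 571 without, overlapping groups in which untreated animal 1 was the highest (-0.26 ± 0.27, 95% interval -0.84 to 0.31, adjusted p = 0.799 by limma). The difference from the germ-free value was 2.05 ± 0.38 (adjusted p = 0.00628), and over 24 alternatives it ran from 1.71 to 2.32 and was called in each. The strains differ between the comparisons, so strain and kind of treatment cannot be told apart here. The beta-actin ratio differed as well, with means of 4.39 (germ-free) and 5.37 (conventional) against 2.73 (antibiotic) and 2.55 (untreated). A fit with that ratio as a covariate is among the 24 alternatives. For C1s the difference was 0.44 ± 0.13 (adjusted p = 0.06, and 0.0323 without conventional animal 8) and for C8g 0.41 ± 0.13 (adjusted p = 0.0843). These differences were called in 4 of 24 alternatives for C1s and in 2 of 24 for C8g. That of Serping1 (0.23, adjusted p = 0.499 by limma) was called in 1 of 24.

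Animals of a group did not spread evenly over the members. Germ-free animal 4 was the highest of its group for 22 of 35 members, conventional animal 8 for 29, untreated animal 3 for 26 and antibiotic animal 13 for 29. The lowest was most often germ-free animal 1 (21 members), conventional animal 6 (21), untreated animal 2 (17) and antibiotic animal 14 (23). The members thus tended to be high or low together within an animal, and their values are not independent of each other. The animals most often highest also had the highest 99th percentile of all signals in their groups, at 3121, 3152, 2676 and 2995. Germ-free animal 1 and antibiotic animal 14 had the lowest percentile of theirs, but conventional animal 6 and untreated animal 2 did not. Whether other bright genes moved together in the same way was not tested. The median coefficient of variation over the members was 7.79% in germ-free, 8.42% in conventional, 8.18% in untreated and 10.8% in antibiotic-treated livers. C6 had the highest in germ-free (33.3%) and untreated livers (46.4%).

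Further genes of these pathways are set beside the 6.44% of all genes that rose in germ-free livers and the 6.74% that fell. Of 15 further complement genes 0 were called (median -0.02). Of 19 further coagulation genes 2 rose and 0 fell (median 0.19). Procr, the receptor of protein C, rose by 0.73 ± 0.23, with dim signals of 54.6, 57.3 and 46.3 in germ-free and 28.5, 20.2 and 27.8 in conventional animals (adjusted p = 0.047 by limma). This call was kept in 11 of 24 alternatives and was lost without any 1 of the 6 Sprague Dawley animals (adjusted p from 0.07 to 0.145). Procr is an endothelial gene, and stands beside the endothelial markers given above. Lman1, a cargo receptor that carries factors V and VIII out of the endoplasmic reticulum, rose by 0.62 ± 0.18 with overlapping groups (adjusted p = 0.0418), a call kept in 10 of 25 alternatives and lost, among others, without germ-free animal 3 (0.159) or 4 (0.16) and conventional animal 7 (0.146) or 8 (0.0692). With antibiotics 0 genes of either list were called.

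Of 17 liver transcription factors and IL-6 receptor genes 3 rose and 1 fell in germ-free livers. Nr3c1, the glucocorticoid receptor, was at 481, 701 and 492 in germ-free and 319, 278 and 264 in conventional animals (0.91 ± 0.14, adjusted p = 0.00079 by limma). Il6r, the receptor for interleukin-6, was at 546, 549 and 634 against 218, 376 and 349 (0.87 ± 0.20, adjusted p = 0.00988). Cebpd, a C/EBP factor of the acute phase, was dim at 17.2, 16.9 and 21.3 against 48.1, 43.2 and 24.8 and fell (-0.64 ± 0.19, adjusted p = 0.0371). None of these groups overlapped. The calls of Nr3c1 and Il6r held in all 25 alternatives, and that of Cebpd in 15 of 24, not without any 1 germ-free animal (0.0583 to 0.114) or conventional animal 6 (0.118) or 7 (0.113). Nr2f2, an orphan nuclear receptor that endothelial cells also express, rose by 0.34 (adjusted p = 0.0416), a call kept in 11 of 25 alternatives and lost, among others, when germ-free animal 3 (0.123), germ-free animal 4 (0.112), conventional animal 6 (0.0815) or conventional animal 8 (0.119) was left out. The difference between the comparisons was called for Nr3c1 (0.89, adjusted p = 0.0168), Il6r (1.06, adjusted p = 0.0397) and Cebpd (-1.04, adjusted p = 0.0351), in 22 of 24, 12 of 24 and 14 of 23 alternatives.

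Of 15 acute phase genes outside the members 1 rose in germ-free livers and 0 fell (median 0.16). This was Serpina3n, a serpin that inflammation raises, at 6294, 7318 and 6882 in germ-free and 4632, 5686 and 5625 in conventional animals, with no overlap (0.36 ± 0.11, adjusted p = 0.0386 by limma). The call was kept in 13 of 25 alternatives and lost, among others, without germ-free animal 3 (0.153) or 4 (0.0903) and conventional animal 6 (0.134). The median of that list with antibiotics was 0.28, with 0 called.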

How the data were processed

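Per the submitters' processing notes the authors used MAS5, of unstated version, and the deposited file gives its linear signal intensity for each probe set on each of 12 arrays, without detection calls. The labels' protocols name Qiagen RNeasy extraction and biotin labelling. Of 31099 probe sets 57 were controls and 20826 carried a single gene symbol in GEO's platform annotation; 436 carried several and 9780 carried no symbol and entered no named comparison. Current names came from RefSeq's GRCr8 table, through the gene identifier for 20758 probe sets and the accession for 2, while 66 kept the old name. A probe set needed a mean signal of 19.7, the median over probe sets, and the brightest represented its gene. Values of log2(signal + 16) entered limma 3.58.1 under R 4.3.3 (lmFit, eBayes with trend), where the 4 group means shared 1 spread estimate from all arrays (8 residual and 5.84 prior degrees of freedom). P-values were two-sided with Benjamini-Hochberg adjustment and 0.05 as threshold. A second fit took all 15523 passing probe sets separately. The fit was tested on simulated data. The median SE of a germ-free log2 fold change was 0.14. No label says that animals of a group were littermates or housed apart.

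Members and lists were chosen with earlier results of these data known. By rule, members that were called, that did not overlap between groups or that shared a role group with a called one are given by animal, and others by range. The settings varied were the offset, the signal filter, the scaling (quantile, median), the arrays in the fit, the variance prior, array weights, an actin covariate and the handling of probe sets, and each animal was left out in turn.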

Additional observations from a re-analysis of the deposited data

Results flagged for a closer look

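C6 was singled out because its germ-free and antibiotic changes differed by a test of the difference itself. The germ-free value was 1.79 ± 0.27 and the antibiotic value -0.26 ± 0.27 (log2 ± SE, 3 against 3 animals each), a difference of 2.05 ± 0.38 (adjusted p = 0.00628 by limma with Benjamini-Hochberg adjustment). C6 was higher in 3 of 3 germ-free animals than in any conventional one, while the antibiotic and untreated animals overlapped. Strain and kind of treatment cannot be told apart in this difference, and the beta-actin ratio differed between the strains as well.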

How the results depend on the processing

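C1s, C6 and C8g rose in germ-free livers under all 25 alternatives, and C6 was called for the difference under all 24 that test it. The 6 members that rose became 3 with the actin covariate and 3 to 6 when 1 animal was left out, and 1 member (Fgb) was called lower with quantile normalization. Members called for the difference numbered 2 with a 75th percentile filter, 4 with quantile normalization and 3 with array weights, and 1 to 2 without 1 animal. Of all genes, 623 passed in germ-free livers with the actin covariate, 1901 when every probe set was tested (more features), and 654 (without germ-free animal 3) to 1236 without 1 animal. With antibiotics 0 members were called under any alternative.

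No value that was called with signals as deposited changed sign, and these uncalled values did. Quantile normalization gave an antibiotic median of -0.0246 and turned 18 antibiotic values, to -0.0274 for C1s, -0.018 for C3, -0.0947 for C8g, -0.2219 for C9, -0.1104 for Cfi, -0.1083 for C4bpa, -0.0227 for Mbl1, -0.1977 for Mbl2, -0.0129 for F10, -0.1269 for F12, -0.0756 for Fga, -0.1214 for Fgb, -0.0328 for Fgg, -0.0366 for Proc, -0.0183 for Pros1, -0.045 for Serpinc1, -0.0942 for Serping1 and -0.0246 for Vtn. Array weights gave an antibiotic value of 0.0151 for C8b. In germ-free livers quantile normalization gave -0.0845 for C9, -0.019 for Fga, -0.0749 for Fgg, -0.0002 for Plg and -0.05 for Serpinc1. Also in germ-free livers, median centring gave -0.0221 for C5 and -0.0189 for C9; array weights gave -0.1013 for C5, 0.0201 for C8b and 0.0143 for Cfi. The mean of probe sets gave 0.2846 for Masp1 and 0.0989 for Masp2, and the actin covariate 0.0439 for Masp1. Leaving out 1 animal, germ-free values ran from -0.1075 to 0.1087 for C5, -0.0643 to 0.0425 for C8b, -0.0249 to 0.1193 for C9, -0.0783 to 0.0516 for Cfi, -0.0951 to 0.0051 for F10 and -0.1048 to 0.0393 for Fgb. Antibiotic values then ran from -0.5269 to 0.0848 for C6 (the latter without untreated animal 1), -0.0814 to 0.0248 for C8a, -0.0723 to 0.0678 for C8b, -0.0953 to 0.0922 for Mbl1, -0.0947 to 0.1722 for Mbl2, -0.0186 to 0.0725 for F12 and -0.0293 to 0.0828 for Pros1. The causes were not tested.

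No paired analysis was possible because the groups compared share no replicate numbers. A fit on a comparison's own 6 arrays gives no test of the difference. With 3 animals a group, changes near the median SE of 0.14 cannot be called.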

Other observations

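C1q, the recognition part of the C1 complex, is made by macrophages and not by hepatocytes. Its chains C1qa, C1qb and C1qc had antibiotic values of 0.68, 0.48 and 0.51 on the log2 scale as deposited, and of 0.71, 0.51 and 0.54 after quantile normalization, so that here the direction did not turn with the scaling. None was called by limma. The chains are among the 15 further complement genes, of which 12 lay above 0 with antibiotics (median 0.25, range -0.21 to 0.68). The 6 macrophage markers tested had antibiotic values of 0.28 to 0.63, all above 0 and none called. A link between these markers and the C1q values was not tested. In germ-free livers the C1q chains had values of -0.08, -0.39 and -0.10, also with 0 called.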
